A study of Mus musculus with 9 samples.

Results

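The genes described here are 9 immediate early genes, chosen by symbol from the deposited gene table: the zinc finger transcription factor genes Egr1, Egr2 and Egr3, and Ier2, Ier3, Ier5, Btg2, Zfp36 and Dusp1. Each symbol matched 1 gene among the 48230 genes kept. Stranded mRNA sequencing was done on BeCon cells, mouse ovarian tumor cells, in 9 libraries. In 4 libraries the cells came from the ascites of BeCon-bearing B6 mice given YKL-05-099, which inhibits salt-inducible kinases (SIKs). In 1 library they came from culture, and in 4 libraries from the ascites of BeCon-bearing B6 mice given the vehicle. Cells from all mice were sorted as viable, CD45-negative and MHC class I-positive, whereas no sort is stated for the cultured cells. The labels used here give no dose, treatment time or age, and leave unsaid if several animals went into a library. The p-values therefore cover the spread among these libraries only. Library names number the treated and the vehicle mice in separate series, so a cage or handling batch cannot be told apart from treatment.

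Immediate early genes are transcribed within minutes of a stimulus, without new protein synthesis, largely through serum response factor with its ERK-phosphorylated cofactors and through CREB. EGR proteins bind GC-rich DNA, and Egr1 is a standard readout of ERK signaling. Several products close the response again: Dusp1 dephosphorylates MAP kinases, Zfp36 (tristetraprolin) brings mRNAs with AU-rich elements to decay, and Btg2 recruits the CCR4-NOT deadenylase. Transcripts of this class are short-lived, and handling of cells is known to induce them.

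Values are the deposited FPKM, fragments scaled by transcript length and library size, so levels can be set side by side between genes. The FPKM of all genes summed to between 453169 and 482851 per library. The lowest values pointed to roughly 23000000 to 35000000 fragments per library, a rough estimate from which no interval was drawn. The labelled cell type was checked on marker genes. Wt1 stood at 501 to 529 FPKM in YKL-05-099, 373 in cultured and 551 to 565 in vehicle cells, and Krt18 at 241 to 251 FPKM in YKL-05-099, 156 in cultured and 166 to 177 in vehicle cells. The 10 ovarian and Mullerian epithelial markers, Krt18 included, summed to 747 to 796 FPKM in YKL-05-099, 746 in cultured and 817 to 911 FPKM in vehicle cells. In mouse cells 7 of them reached 1 FPKM, with Krt19 at 271 to 296 FPKM in YKL-05-099 and 345 to 382 FPKM in vehicle cells and Gata6 at 120 to 153 FPKM in YKL-05-099 and 202 to 221 FPKM in vehicle cells. The other 3 were near 0, since Epcam did not exceed 0.624 FPKM, Pax8 0.202 FPKM and Cdh1 0.0511 FPKM in any library.

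To show where serum response factor and CREB could find sites, the stretch upstream of a RefSeq transcription start (GRCm38.p6) is printed for Egr2 and Btg2, which had the smallest p-values of the set, and for Dusp1, which did not pass the test. RefSeq windows were on hand for 6 of the 9 genes. Bases annotated as UTR were left out. Capitals mark matches, on either strand, to the CArG box bound by serum response factor, to the cAMP response element TGACGTCA, and to the EGR site GCGNGGGCG. The Egr2 stretch is chr10:67537619-67537868 on the plus strand, the Btg2 stretch chr1:134079156-134079405 on the minus strand and the Dusp1 stretch chr17:26508520-26508722 on the minus strand.
Egr2: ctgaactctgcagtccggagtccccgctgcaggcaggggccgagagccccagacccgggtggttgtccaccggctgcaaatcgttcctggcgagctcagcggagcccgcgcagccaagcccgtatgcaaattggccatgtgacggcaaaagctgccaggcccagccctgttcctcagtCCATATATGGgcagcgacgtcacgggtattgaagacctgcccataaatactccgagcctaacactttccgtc
Btg2: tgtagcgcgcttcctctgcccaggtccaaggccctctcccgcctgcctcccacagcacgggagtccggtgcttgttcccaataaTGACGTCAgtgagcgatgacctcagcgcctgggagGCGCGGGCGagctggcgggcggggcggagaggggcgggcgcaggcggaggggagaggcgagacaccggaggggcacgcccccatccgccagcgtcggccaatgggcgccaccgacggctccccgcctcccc
Dusp1: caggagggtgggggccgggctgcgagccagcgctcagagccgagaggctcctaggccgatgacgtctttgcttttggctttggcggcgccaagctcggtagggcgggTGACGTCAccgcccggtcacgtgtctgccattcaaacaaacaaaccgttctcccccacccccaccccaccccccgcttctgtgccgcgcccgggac

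The Egr2 stretch held a CArG box at -72 to -63 and no full match to the cAMP response element TGACGTCA. Partial matches, such as the cgacgtca shortly after this box, were not searched for in any gene. The stretch is 1 of 5 RefSeq windows of Egr2, of which 4 held a CArG box, and lies inside the deposited locus. The windows starting at 67537619, 67537620 and 67537680 overlap and hold the same box, and the one starting at 67537316 holds another. The stretch just before the locus start (67535249 to 67535474) held none of the motifs. The Btg2 stretch held a cAMP response element at -166 to -159 and an EGR site at -131 to -123, and the Dusp1 stretch a cAMP response element at -143 to -136. Within the printed stretches none of these matches overlapped. Of the other genes with a window on hand, Zfp36 had a CArG box at -58 to -49 and an EGR site at -105 to -97. Ier3 and Ier5 had no match. Over the 250 bases upstream of all 32851 RefSeq starts, 1.47% held a CArG box, 1.55% the cAMP response element and 4.70% an EGR site. The matches describe these letters and show no binding.

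The EGR genes differed by orders of magnitude in level. Egr1 (ENSMUSG00000038418, chromosome 18, 34859823 to 34864984) had 1182, 1205, 1227 and 769.9 FPKM in YKL-05-099 libraries 1 to 4, 29.8 FPKM in culture, and 1204, 1356, 1365 and 1674 FPKM in vehicle libraries 1 to 4. By mean level it ranked 23 among all genes in YKL-05-099 cells, 3321 in cultured cells and 17 in vehicle cells. The mouse groups overlapped only in that YKL-05-099 libraries 2 and 3 reached vehicle library 1, and YKL-05-099 library 4 lay far below all others from mice. Egr1 averaged 1096 ± 218 FPKM in YKL-05-099 and 1399 ± 197 FPKM in vehicle cells (SD, n = 4 each). The difference did not pass the test across all genes (log2 fold change -0.37, SE 0.155, limma adjusted p = 0.0804).

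Egr2 (chromosome 10, 67535475 to 67542188) fell in YKL-05-099 cells. It had 6.07, 7.45, 5.63 and 2.54 FPKM in YKL-05-099 libraries 1 to 4, 0.484 FPKM in culture, and 9.21, 8.66, 10.6 and 9.93 FPKM in vehicle libraries 1 to 4. The mouse groups did not overlap, and vehicle libraries varied little among themselves. The means were 5.42 ± 2.07 FPKM in YKL-05-099 and 9.60 ± 0.843 FPKM in vehicle cells (log2 fold change -0.79, SE 0.223, limma adjusted p = 0.0172). Without YKL-05-099 library 4 the log2 fold change was -0.53 and the call was kept (limma adjusted p = 0.00363).

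Egr3 (chromosome 14, 70077445 to 70080157) stayed below 1 FPKM in every library. It had 0.0974, 0.335, 0.0629 and 0.199 FPKM in YKL-05-099 libraries 1 to 4, 0.0492 FPKM in culture, and 0.365, 0.385, 0.454 and 0.795 FPKM in vehicle libraries 1 to 4. All YKL-05-099 values lay below all vehicle values. By the rough depth estimate, Egr3 rested on about 14 to 41 fragments per vehicle library, 2.2 to 14 per YKL-05-099 library and 2.1 in culture. Egr3 did not pass the filter on low values, 1 FPKM or more in 4 or more mouse libraries. An exact two-sided permutation test of this gene alone gave p = 0.0286, the smallest that 4 against 4 libraries allow, with no adjustment for other genes. With all genes above 0 entered, it missed the threshold (limma adjusted p = 0.0567). The deposited locus differs from the Egr3 gene of GENCODE M21, which spans 70077203 to 70082614.

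**Figure D1:**
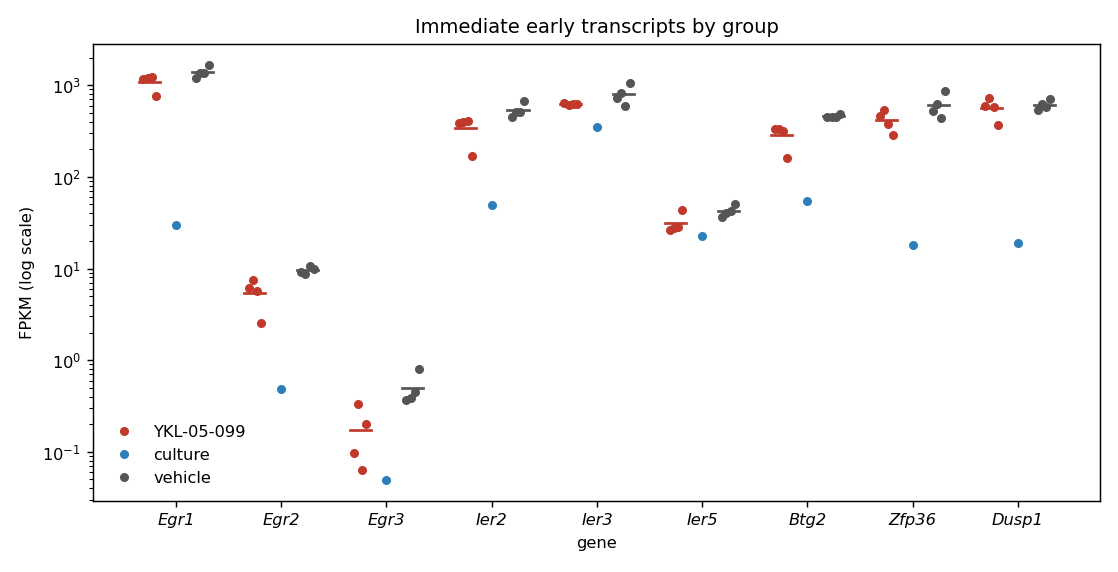
FPKM (log axis) of the 9 genes in each library, with YKL-05-099 in red, culture in blue and vehicle in grey; bars are means of 4 libraries. The cultured library lies below every mouse library for all 9 genes, and Egr1 reaches 1674 FPKM in vehicle library 4.

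Among the genes named for immediate early response, Ier2 and Ier5 fell and Ier3 did not pass the test. Ier2, which encodes a small nuclear protein (chromosome 8, 84661331 to 84662852), had 384, 396.5, 412 and 169.6 FPKM in YKL-05-099 libraries 1 to 4, 48.9 FPKM in culture, and 449.5, 513, 516 and 677 FPKM in vehicle libraries 1 to 4. The mouse groups did not overlap, with means of 340.3 ± 114 FPKM in YKL-05-099 and 539 ± 97.0 FPKM in vehicle cells (log2 fold change -0.73, SE 0.260, limma adjusted p = 0.0456). Without YKL-05-099 library 4 the value was -0.42 (limma adjusted p = 0.0221). Leaving out YKL-05-099 library 1 or any single vehicle library ended the call (limma adjusted p from 0.0527 to 0.0930), as did quantile normalization (0.0730).

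Ier5, a regulator of heat shock factor dephosphorylation (chromosome 1, 155096361 to 155099636), had 26.4, 28.0, 28.7 and 44.0 FPKM in YKL-05-099 libraries 1 to 4, 22.4 FPKM in culture, and 36.3, 40.5, 42.9 and 50.8 FPKM in vehicle libraries 1 to 4. Here YKL-05-099 library 4 was the highest of its group and lay inside the vehicle range, whereas it was the lowest for Egr1, Egr2 and Ier2. The means were 31.8 ± 8.23 FPKM in YKL-05-099 and 42.6 ± 6.12 FPKM in vehicle cells (log2 fold change -0.43, SE 0.154, limma adjusted p = 0.0449). Without YKL-05-099 library 4 the groups did not overlap and the log2 fold change was -0.59 (limma adjusted p = 0.00214). Leaving out YKL-05-099 library 1, 2 or 3 or vehicle library 2, 3 or 4 ended the call (limma adjusted p from 0.0752 to 0.115), and an exact two-sided permutation test of this gene gave p = 0.114.

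Ier3, which encodes a regulator of cell survival (chromosome 17, 35821684 to 35822923), was the most even gene of the set under treatment. It had 637, 605, 628 and 619 FPKM in YKL-05-099 libraries 1 to 4, 347 FPKM in culture, and 731, 826, 599 and 1066 FPKM in vehicle libraries 1 to 4. Vehicle library 3 lay below all YKL-05-099 libraries and the other vehicle libraries above them. The coefficient of variation was 2.21% in YKL-05-099 and 24.5% in vehicle cells. The log2 fold change of -0.34 (SE 0.142) did not pass the test (limma adjusted p = 0.0781). It passed without vehicle library 3 (log2 fold change -0.47, limma adjusted p = 0.0115) and after median-of-ratios scaling (limma adjusted p = 0.0484).

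Of the genes whose products dampen signaling or growth, Btg2 fell, and Zfp36 and Dusp1 did not pass the test. Btg2 (chromosome 1, 134075170 to 134079120) had 335, 335, 317 and 161.8 FPKM in YKL-05-099 libraries 1 to 4, 55.0 FPKM in culture, and 450.1, 450.5, 454 and 484 FPKM in vehicle libraries 1 to 4. The mouse groups stood well apart, and the coefficient of variation among vehicle libraries was 3.53%. The means were 287 ± 84.0 FPKM in YKL-05-099 and 459.7 ± 16.2 FPKM in vehicle cells (log2 fold change -0.74, SE 0.203, limma adjusted p = 0.0155). Without YKL-05-099 library 4 the log2 fold change was -0.48 (SE 0.0495, limma adjusted p = 0.000245).

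Zfp36 (chromosome 7, 28376784 to 28380253) had 461, 536, 382 and 283 FPKM in YKL-05-099 libraries 1 to 4, 18.1 FPKM in culture, and 529, 624.5, 436 and 859 FPKM in vehicle libraries 1 to 4. The groups overlapped, because vehicle library 3 lay below YKL-05-099 libraries 1 and 2 and vehicle library 1 below YKL-05-099 library 2. The log2 fold change of -0.55 (SE 0.227) did not pass the test (limma adjusted p = 0.0746). It passed without YKL-05-099 library 2 (log2 fold change -0.69, limma adjusted p = 0.0433) or without vehicle library 3 (-0.70, limma adjusted p = 0.0370).

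Dusp1 (chromosome 17, 26505590 to 26508519) had 591, 720, 580 and 367 FPKM in YKL-05-099 libraries 1 to 4, 18.9 FPKM in culture, and 543, 617, 581 and 701 FPKM in vehicle libraries 1 to 4. The mouse groups were interleaved except for YKL-05-099 library 4. The log2 fold change was -0.15 (SE 0.176, limma adjusted p = 0.523), and 0.045 (SE 0.104) without that library. Of the 8 genes tested, Dusp1 had the smallest difference between treatment and vehicle.

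In total, 4 of the 8 genes tested fell (Egr2, Ier2, Ier5, Btg2) and 0 rose, where limma called 43.2% of all 11788 genes tested, 15.1% lower and 28% higher. At an unadjusted limma p under 0.05, 7 of the 8 were lower and 0 higher. That cut is looser. The share of all genes passing it was not computed, so the count of 7 cannot be weighed against it. That share is at least the 15.1% lower and 28% higher called after adjustment. For the other unadjusted counts given below the share was not computed either. The median log2 fold change of the 8 was -0.49, against 0.054 over all genes tested. After median-of-ratios scaling 21.3% of all genes were called lower and 20.8% higher, and 5 of the 8 genes were called lower. The mouse groups did not overlap for Egr2, Ier2 and Btg2 among the genes tested and for the untested Egr3, and for none in the other direction. Of all genes tested 40% did not overlap, 13.5% lower and 26.5% higher. None of the 4 calls was kept when all 24793 genes with a value above 0 were entered (limma adjusted p from 0.0623 to 0.138). That fit called 7.64% of these genes lower and 12.1% higher.

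**Figure D2:**
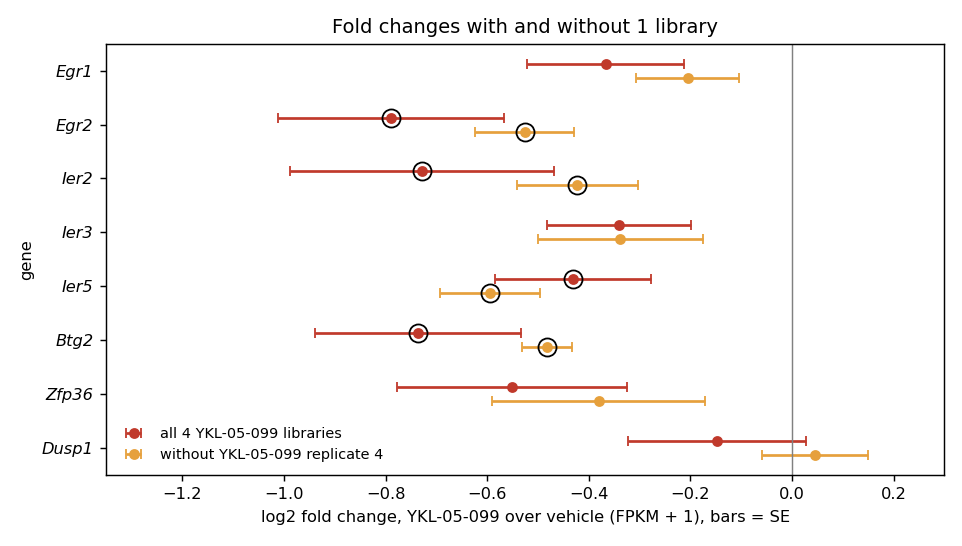
Log2 fold change of YKL-05-099 over vehicle with its standard error for the 8 genes tested, from all libraries (red) and without YKL-05-099 library 4 (orange); black circles mark a limma adjusted p under 0.05. Egr2, Ier2, Ier5 and Btg2 are circled in both fits, and Dusp1 moves to 0.045 without that library.

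YKL-05-099 library 4 stood apart from the other treated libraries in this set. It was the lowest of the 8 mouse libraries for 6 of the 9 genes (Egr1, Egr2, Ier2, Btg2, Zfp36, Dusp1), against 10.3% of all genes tested, and the lowest of the 4 treated libraries for the same 6, against 25.4%. In it Egr2 stood at 39.8%, Ier2 at 42.7%, Btg2 at 49.2%, Dusp1 at 58.3%, Zfp36 at 61.6% and Egr1 at 63.9% of the mean of the other 3 treated libraries, whereas Ier3 stood at 99.3% and Ier5 at 159%. Over the 8 genes tested its mean shift from the vehicle mean was -0.96 on the log2 scale, against -0.42 to -0.28 in the other treated libraries. Over all genes tested the shift was 0.047 in that library and 0.055 to 0.064 in the others, and its correlation with them across genes (0.988 to 0.991) was close to theirs (0.990 to 0.992).

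Vehicle library 4 was at the other end, the highest of the 8 mouse libraries for 7 of the 9 genes, against 9.22% of all genes tested. Its mean shift was 0.27, against -0.15 to -0.02 in the other vehicle libraries. Ier3 and Zfp36 stood 0.44 and 0.53 above the vehicle mean there.

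**Figure D3:**
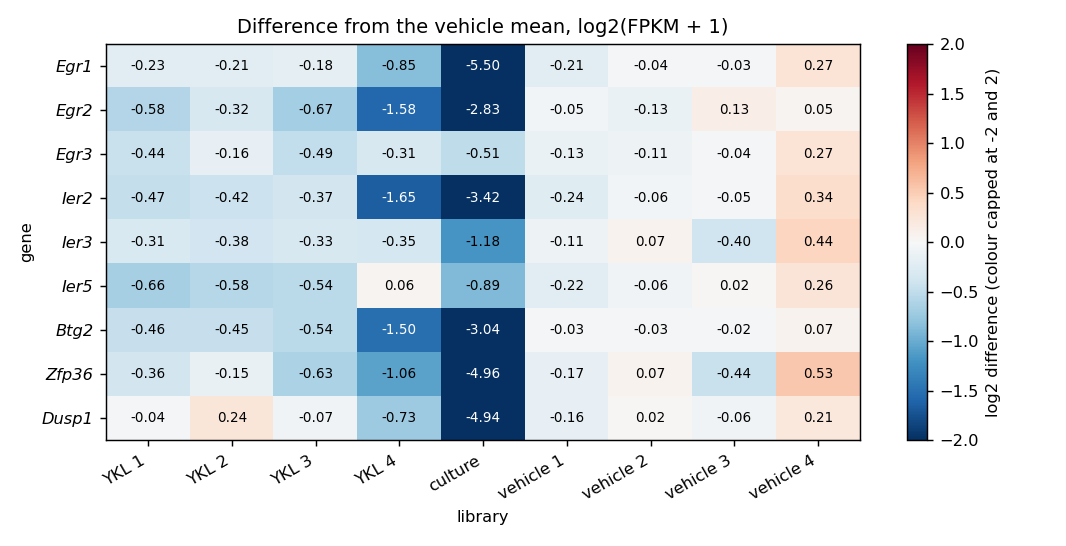
Difference of each library from the vehicle mean in log2(FPKM + 1) for the 9 genes (rows) and 9 libraries (columns), with colour capped at 2 in either direction. YKL-05-099 library 4 shows -1.58 for Egr2, -1.65 for Ier2 and -1.50 for Btg2 but 0.056 for Ier5, and the cultured library shows -5.50 for Egr1.

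Markers of blood cells and some of fibroblasts moved with treatment in the same libraries. The 15 pan-leukocyte markers summed to 19.8 to 36.7 FPKM in YKL-05-099, 14.7 in cultured and 52.3 to 102 FPKM in vehicle cells, with 7 of 9 tested members lower. The 12 macrophage markers summed to 19.1 to 72.1 FPKM in YKL-05-099, 10.3 in cultured and 132 to 286 FPKM in vehicle cells. The 7 erythroid markers summed to 1.45 to 92.8 FPKM in YKL-05-099, with library 4 lowest, 0.188 in cultured and 244 to 1490 FPKM in vehicle cells, and 5 of 5 tested were lower. The 8 fibroblast markers summed to 517 to 598 FPKM in YKL-05-099, 310 in cultured and 609 to 654 FPKM in vehicle cells, with 4 of 5 tested lower. The 6 B and plasma cell markers summed to 0.697 to 1.03 FPKM in YKL-05-099, 0.738 in cultured and 2.52 to 5.59 FPKM in vehicle cells. In culture 6 pan-leukocyte and 7 macrophage markers were listed at 0, Ptprc (CD45) and Adgre1 (F4/80) among them. YKL-05-099 libraries 1 and 4 held the least pan-leukocyte and macrophage RNA, with macrophage sums of 19.1 and 21.1 FPKM, while the mean shift of the 8 genes was -0.39 in library 1 and -0.96 in library 4. With the mean log2 level of the 15 pan-leukocyte genes as a covariate limma called 0 of the 8 genes (1 lower at an unadjusted p under 0.05) and 2.40% of all genes lower. The median log2 fold change of the 8 was then -0.28, with a median standard error of 0.338 against 0.190 without it. Of the 4 genes called without the covariate, Ier5 was at -0.88 (limma adjusted p = 0.0676), Egr2 at -0.37, Btg2 at -0.29 and Ier2 at -0.27 (limma adjusted p from 0.622 to 0.777). Ier3 was at -0.37 and Dusp1 at 0.22. The part of these cells in the results was not tested, and fewer cells of a type cannot be told apart from less RNA per cell.

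Cultured BeCon cells held far less of these transcripts than cells taken from mice. All 9 genes were lower in culture than in any mouse library, as were 36.2% of all genes entered. Egr1 stood at 2.13%, Zfp36 at 2.96%, Dusp1 at 3.10%, Egr2 at 5.04%, Ier2 at 9.08%, Egr3 at 9.86% and Btg2 at 12.0% of the vehicle mean. Ier3, at 43.1%, and Ier5, at 52.6%, were closer to it. By a rule of size, at least 2 log2 units below the vehicle mean and outside the range of all mouse libraries, 6 of the 8 genes entered were apart (Egr1, Egr2, Ier2, Btg2, Zfp36, Dusp1), where 3.06% of 12296 genes were. None of the 8 was apart and higher, against 2.08% of genes. The median difference of the 8 was -3.23 log2 units, against 0.031 over all genes entered. Culture has 1 library, so this difference has no replicate check. Cells from mice were sorted and no sort is stated for the cultured cells. Sorting and other handling therefore cannot be told apart from growth in mice.

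The order of the genes by level changed with the setting. In YKL-05-099 cells the order of the means was Egr1, Ier3, Dusp1, Zfp36, Ier2, Btg2, Ier5, Egr2 and Egr3, and in vehicle cells it was the same but for Zfp36 and Dusp1, whose means of 612 ± 182 and 610.4 ± 67.8 FPKM did not differ beyond their spread. In culture Ier3 came first, followed by Btg2, Ier2, Egr1, Ier5, Dusp1 and Zfp36. In mouse cells the neighbours Ier3, Dusp1, Zfp36, Ier2 and Btg2 overlapped in range with the next in order, whereas Ier5, Egr2 and Egr3 were set apart from them and from each other in every library.

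The genes with profiles most like Egr1 and Egr2 were sought among all genes tested, by the root mean square difference over the 9 libraries after centring. For Egr1 they were Dusp1 (0.20 log2 units), Ccdc80 (0.26) and Myl9 (0.28), and Zfp36 followed at rank 5 (0.30). For Egr2 they were Btg2 (0.12), Dusp5 (0.17) and Rhob (0.24). Dusp5, an ERK phosphatase gene, had 97.5, 99.1, 93.5 and 41.8 FPKM in YKL-05-099 libraries 1 to 4, 20.9 FPKM in culture, and 114, 120, 114 and 124 FPKM in vehicle libraries 1 to 4. Rhob, which encodes a small GTPase, likewise had its lowest mouse value in YKL-05-099 library 4, at 144.8 FPKM. These distances describe 9 libraries, 1 of them from culture. Egr1 stood 5.50 log2 units below the vehicle mean there, so that library weighs heavily in its distances. Dusp1 and Ccdc80, like Egr1, were lowest among mouse libraries in YKL-05-099 library 4. Myl9 was not, with 60.6, 56.5, 49.3 and 56.3 FPKM in YKL-05-099 libraries 1 to 4 and 74.6 to 88.9 FPKM in vehicle libraries.

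The 33 other immediate early genes of the list used here split in direction. Of 29 tested, 6 rose and 7 fell in YKL-05-099 cells, with a median of -0.19, where 28% of all genes tested were called higher and 15.1% lower. Without YKL-05-099 library 4, 8 rose and 8 fell. With the leukocyte covariate 5 rose and 1 fell, and the median was 0.091. The smallest p-values belonged to rises of the orphan receptor gene Nr4a2 (14.7 ± 0.803 FPKM in YKL-05-099 and 1.97 ± 0.245 FPKM in vehicle cells), the kinase gene Sgk1 (219 ± 20.5 FPKM in YKL-05-099 and 96.8 ± 10.9 FPKM in vehicle cells) and Nr4a3 (8.03 ± 0.951 FPKM in YKL-05-099 and 1.79 ± 0.798 FPKM in vehicle cells). Fos and Jun, named after their values were seen, did not pass the test (limma adjusted p = 0.729 and 0.715). Fos averaged 1688 ± 484 FPKM in YKL-05-099 cells, stood at 5.60 FPKM in culture and averaged 1756 ± 275 FPKM in vehicle cells. YKL-05-099 library 4 was the lowest mouse library for 17 of the 29 genes, and in culture 13 of 30 entered were apart and lower and 1, Fosl1, higher.

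The counts of the lists that follow are to be read against the same 28% higher and 15.1% lower. Without YKL-05-099 library 4 the shares of all genes tested were 25% higher and 13.7% lower. With the leukocyte covariate they were 4.12% higher and 2.4% lower. Counts from those fits, also for the list above, are to be read against these shares. Of SRF and its cofactors, Elk1 rose (log2 fold change 0.24) and Elk3 fell (-0.27), while Srf (-0.15), Elk4, Mkl1 and Mkl2 did not pass the test. Of 10 kinases of the ERK pathway 1 rose and 2 fell, Rps6ka2, Map2k1 and Rps6ka3. Genes induced by ERK fell in 10 of 12 tested cases and 0 rose, with a median of -0.70 and the smallest p-values for Spred2, Spred1 and Dusp4; without YKL-05-099 library 4 all 12 fell, and with the leukocyte covariate 8. Dusp4, a nuclear MAP kinase phosphatase gene, had 1.47 ± 0.513 FPKM in YKL-05-099, 59.3 in cultured and 7.80 ± 1.73 FPKM in vehicle cells. In culture this list was not low, with a median difference from vehicle of 0.38 log2 units over 13 genes entered, 3 genes apart and higher and 1 lower. CREB target genes rose in 9 of 13 tested cases and 0 fell (median 1.01), led by Nr4a2, Pde4d and Pde4b, and 1 of the genes that did not pass is Dusp1. With the leukocyte covariate 7 rose.

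**Figure D4:**
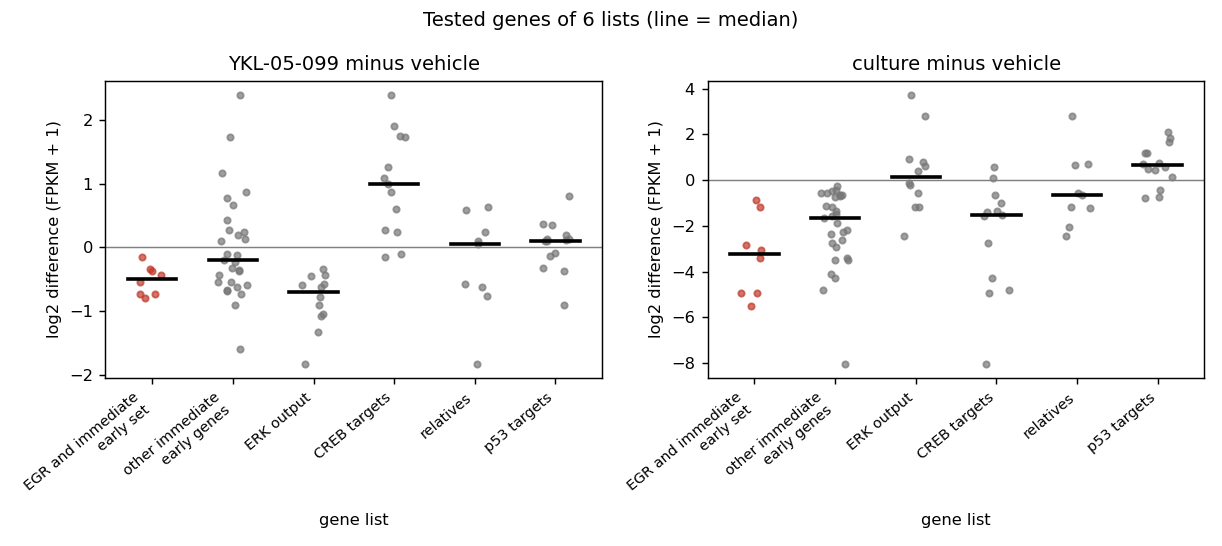
Log2 difference of each tested gene, YKL-05-099 minus vehicle (left) and culture minus vehicle (right), for 6 gene lists; black lines are medians. The EGR and immediate early set (red) has medians of -0.49 and -3.23, ERK output genes -0.70 and 0.14, and CREB targets 1.01 and -1.52.

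Among partners and relatives, Nab2, a corepressor of EGR proteins, rose (58.4 ± 1.51 FPKM in YKL-05-099 and 44.7 ± 9.70 FPKM in vehicle cells, limma adjusted p = 0.0195). The groups overlapped, because vehicle library 4 had 58.96 FPKM against 37.3 to 41.2 FPKM in the other vehicle libraries, and the call was lost with the leukocyte covariate. Its relative Nab1 did not pass the test (limma adjusted p = 0.186), and Wt1, whose protein binds sites like those of EGR factors, fell (log2 fold change -0.12) but was not called without YKL-05-099 library 4 or with the leukocyte covariate. Egr4 did not exceed 0.0400 FPKM in any library. Of 9 tested relatives of the other genes, 2 rose and 3 fell. The decay factor genes Zfp36l1 (199 ± 27.5 FPKM in YKL-05-099 and 337 ± 31.9 FPKM in vehicle cells) and Zfp36l2 (79.98 ± 3.35 FPKM in YKL-05-099 and 124 ± 8.29 FPKM in vehicle cells) fell with Dusp4. The BTG relatives Tob1 and Tob2, named after their values were seen, rose. With the leukocyte covariate 0 of the 9 rose and 2 fell. Ier5l, named after its values were seen, had 20.2 FPKM in YKL-05-099 library 4 and 4.83 to 6.73 FPKM in the other treated libraries, as Ier5 also was highest there.

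Reported targets and partners of the products, and p53 targets and heat shock genes, were counted as well. Of 10 tested mRNAs reported as targets of the Zfp36 protein, Ier3 among them, 6 fell and 1 rose (median -0.90), with the smallest p-values for Ccl2, Lif and Ccl3. In culture Ccl3, a macrophage chemokine gene, was listed at 0, whereas Ccl2 stood at 24.2 FPKM and Lif at 14.9 FPKM. The macrophage sums given above were lower in treated libraries too, and their part in these falls was not tested. With the pan-leukocyte covariate 2 fell and 1 rose, with a median of -0.22. Of the CCR4-NOT deadenylase genes 1 of 10 rose, Cnot8 (log2 fold change 0.23), and next by p-value came Cnot6l (0.12, limma adjusted p = 0.0514) and Cnot10 (0.09, limma adjusted p = 0.0923). Of 6 p38 and JNK kinase genes Mapk9 (0.23) and Mapk11 (0.25) rose, and Mapk12, Mapk14, Mapk13 and Mapk8 did not pass the test. Of 14 tested p53 targets, a class to which Btg2 belongs, 3 rose and 2 fell, shares near those of all genes. The smallest p-values were those of Trp53inp1 (log2 fold change 0.81), the cell cycle inhibitor gene Cdkn1a (-0.37) and the kinase gene Plk2 (-0.91). Of 8 heat shock genes 4 rose and 1 fell, with the smallest p-values for Hspb1 (-0.67), Hsph1 (1.27) and Dnajb1 (0.39). With the leukocyte covariate no gene of the CCR4-NOT, p38 and JNK, p53, heat shock, SRF and ERK kinase lists was called.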

How the data were processed

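The deposited table gives each gene's FPKM, a unit named per the file headers and computed by the authors. Reads were converted with bcl2fastq 2.19 and the build was GRCm38, per the submitters' processing notes; for aligner and quantification the program is not given in the sources used here. Of 48302 rows, 65 with a repeated identifier and 7 with a failed estimate were left out. Groups come from the sample titles. Coordinates are those of the deposited table, counted from 1. Treatment was tested on log2(FPKM + 1) with limma (version 3.58.1, trend option, R 4.3.3). The 11788 genes that reached 1 FPKM in 4 or more of the 8 mouse libraries entered. Calls were made under 0.05 after Benjamini-Hochberg adjustment over all of them. Fold changes on this scale understate those of low genes. Culture was compared by a rule of size.

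The members and lists were chosen with earlier results of these data known. All 9 members are named. From each other list the 3 tested genes with the smallest p-values are named, with all genes of a list of up to 6, and the 3 genes nearest in profile. Fos, Jun, Tob1, Tob2, Ier5l, Junb, Fosl1 and Etv4 were named after their values were seen. The treatment test was tested on simulated data over 11788 genes, with independent normal noise. It recovered 95% of 100 genes set to a change of 1 log2 unit and 92% of 100 set to 0.5. It called 11 of 11588 left as they were. The changed genes were drawn at random from those with a mean log2 level of at least 3. In the data the members had a median standard error of 0.19, against 0.0697 over all genes tested, so these rates need not hold for them. Alternatives were other pseudocounts, filters and scalings, a replicate block, a leukocyte covariate, all 9 libraries, exact permutation and leaving out each library. Figures used matplotlib 3.10.9. No pair of libraries held identical values.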

Additional observations from a re-analysis of the deposited data

Results flagged for a closer look

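In a check of both mouse groups for 58 named genes, 116 groups of 4 libraries, the following had 1 library far from the rest, with the gap to the nearest other library divided by the range of the group above Dixon's 95% limit. For genes picked without regard to their values, chance gives about 1 in 20 such groups. Some of the 58 were picked by their values, so that rate does not apply to the whole list. Among them are Dusp5 and Rhob, nearest in profile to Egr2, and Ier5l, named after its values were seen.

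In YKL-05-099 library 4 the ratio was 0.902 for Egr1 (769.9 FPKM, nearest 1182), 0.885 for Ier2 (169.6, nearest 384), 0.895 for Btg2 (161.8, nearest 317), 0.903 for Dusp5 (41.8, nearest 93.5), 0.946 for Rhob (144.8, nearest 281) and 0.854 for Zfp36l2 (75.0, nearest 81.0), all low. In the same library it was 0.870 for Ier5 (44.0, nearest 28.7) and 0.876 for Ier5l (20.2, nearest 6.73), both high. Over all 11788 genes tested, that library was apart by this measure on the low side for 0.823% and on the high side for 1.15%.

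In vehicle library 4 the ratio was 0.875 for Btg2 (484 FPKM, nearest 454), 0.867 for Hsph1 (40.5, nearest 18.7) and 0.862 for Dnajb1 (28.0, nearest 22.5), all high. It was 0.917 for Elk4 in vehicle library 2 (13.9, nearest 16.0) and 0.852 for Mapk11 in YKL-05-099 library 1 (2.15, nearest 2.45), both low.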

How the results depend on the processing

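The direction of Egr1, Egr2, Ier2, Ier3, Ier5, Btg2 and Zfp36 was the same under all 19 alternatives each. Some of these could not change it. The other filters, the replicate block, the fit of all 9 libraries and the exact permutation test leave the fold change as it was. Dusp1, not called, turned to 0.22 with the leukocyte covariate and to 0.045 without YKL-05-099 library 4, with a range of -0.278 to 0.045 over single libraries left out. Of the 8 genes, 0 were called with no filter (5 lower at an unadjusted p under 0.05 in limma). More genes were tested there, and 7.64% of them were called lower and 12.1% higher. With the leukocyte covariate 0 of the 8 genes were called as well. That fit called 769 of all genes, 486 higher and 283 lower, against 5089, 3304 and 1785 without it. Leaving out 1 library at a time left 2 to 4 of the 8 genes called, 4226 to 5533 of all genes, 2773 to 3473 higher and 1436 to 2060 lower. The count of 2 came without YKL-05-099 library 1, vehicle library 2 or vehicle library 4, and the cause was not tested. The count of genes apart in culture was 6 in all 5 alternatives run. Egr3 was not refitted with libraries left out, so its dependence on single libraries was not tested.

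Replicate numbers are shared between the groups but the labels do not say that they pair mice. Deviations of same-numbered libraries correlated at -0.0184, 0.133, -0.0467 and 0.172 across genes, so no pairing was assumed. With the replicate block 3 of the 8 genes and 4830 of all genes were called, and Ier2 was not (limma adjusted p = 0.0776).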

Other observations

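Junb, an AP-1 gene of the same response class, did not exceed 0.148 FPKM in any library, while Fos and Jun stood at 1021 FPKM or more and 301 FPKM or more in every mouse library. Whether the values near 0 reflect low expression of Junb or a fault in its quantification in the deposited table was not tested.

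Fosl1 was higher in culture than in mouse cells, at 10.7 FPKM there, against 0.129 to 0.171 FPKM in YKL-05-099 and 0.610 to 1.31 FPKM in vehicle cells. The ERK-induced gene Etv4 had the same order, at 65.5 FPKM in culture and 1.68 ± 0.370 FPKM in YKL-05-099, against 3.99 ± 0.450 FPKM in vehicle cells (SD, n = 4 each mouse group).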
